A study of Homo sapiens with 7 samples.

Results

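The 4 human HOX gene clusters were described by the chromatin loops that start or end in a window set for each. A loop was a member when the midpoint of at least 1 of its anchors lay in 1 of 4 windows of hg19 (GRCh37): chr7:26900000-27400000 for HOXA, chr17:46500000-46900000 for HOXB, chr12:54200000-54550000 for HOXC and chr2:176800000-177200000 for HOXD. The windows were 500 kb, 400 kb, 350 kb and 400 kb wide. Of 135475 loops listed in 7 libraries, 498 were members, at 383 distinct pairs of coordinates: 63 for HOXA, 202 for HOXB, 41 for HOXC and 77 for HOXD.

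The loops came from HiChIP, in which neighbouring DNA ends of fixed chromatin are ligated and the ligated fragments are enriched with an antibody. All 7 libraries were made from HEC-1-B, a human endometrial adenocarcinoma cell line, or from lines derived from it. Unmodified (wild-type) cells were measured with antibodies against ZNF143, CTCF and RAD21, ZNF143KO cells, in which ZNF143 is deleted, with antibodies against CTCF and RAD21, and CTCF-AID cells at 0 h and 24 h of auxin with the antibody against ZNF143. In CTCF-AID cells CTCF bears a degron, a tag through which auxin triggers its degradation, so the 0 h cells share the tag with the 24 h cells but not the depletion. Each group held 1 library, so no difference below has a replicate check and no p-value is given. How many clones stand behind ZNF143KO and CTCF-AID is not given in the sources used here, and the loss of either protein was not measured in these lists.

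HOX genes encode homeodomain transcription factors that set the identity of body segments along the head-to-tail axis, and in a cluster their order on the chromosome follows the order in which they act along that axis. HOXA10 and HOXA11 act in the uterus, where they are needed for the endometrium to receive an embryo. CTCF is a zinc-finger protein that halts loop extrusion by the ring-shaped cohesin complex, of which RAD21 is a subunit, and CTCF sites inside the HOX clusters are known to separate genes that contact one flank from genes that contact the other. ZNF143 is a zinc-finger protein that binds mainly at promoters.

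In RefSeq's gene order, HOXA runs from HOXA2 to HOXA13 with SKAP2 on the side of lower coordinates and EVX1 and HIBADH on the other. HOXB runs from HOXB1 to HOXB9 and then HOXB13, between SKAP1 and TTLL6. HOXC runs the other way, from HOXC13 towards HOXC4, HOXC5 and HOXC6, between CALCOCO1 and SMUG1, and HOXD from HOXD13 to HOXD1, between EVX2 and MTX2. These names come from another genome build than the loops, so the order was used, but no anchor was assigned to a gene.

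Promoter sequence, 250 bases before to 50 after the gene start, was at hand in RefSeq's GRCh38.p14 for 20 of the 38 HOX genes studied: 9 of HOXA, 1 of HOXB, 2 of HOXC and 8 of HOXD. The CTCF letters searched on both strands were CCA, any 2 bases, AG, any 2 bases and GGC, and a looser form allowed any base in the third place. The strict form was present in 2.41% of 35093 promoters and in 1 of 27 promoters of the 20 HOX genes, and the looser form, which includes every strict match, in 10.6% of promoters and in 4 of the 27. The matches are shown, on the strand of the gene with the matching letters in capitals, because they are the CTCF-like letters nearest to HOX gene starts in the sequences at hand. The HOXA10 match lies 56 to 45 bases before the gene start, that of HOXA11 187 to 176, that of HOXD10 98 to 87 and that of HOXD1 245 to 234.
HOXA10: gcgcagccgCCACGAGATGGCgcacttccg
HOXA11: tgttgcttcCCCTGAGGTGGCtacaaagaa
HOXD10: gcacgtgacCCGAGAGGAGGCtgcggctca
HOXD1: cctgtCCGAGAGCAGGCgttctgccctctc
HOXA10 carries the strict form and the other three the looser one. The short core of the ZNF143 motif (CCCA, any 3 bases, TGC) was in 7.78% of promoters and in 0 of the 27 HOX promoters, and its longer form (ACTACA, any 2 bases, TCCCA) in 1.36% of promoters and in 0 of the 27. A match is a match of letters only, and binding there was not measured.

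The lists held 10804 to 40405 loops with total counts of 33460 to 143119, where the count is the whole number that the authors' lists give each loop. The lowest listed count is 2, and 48.4% to 69.0% of a list's loops stood at 2, so a loop that is not listed may still have been present below that count. Library depth is unknown. Intervals are at 95% and cover counting error only, and loops with an anchor in common are not independent of each other. The wild-type ZNF143 list and both ZNF143KO lists had another file layout than the other 4, so layout cannot be told apart from genotype in both comparisons of ZNF143KO with wild-type cells, from the cell line where CTCF-AID cells at 0 h are set against wild-type cells, or from the antibody where ZNF143 is set against CTCF or RAD21 in wild-type cells.

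HOXB held the most loops of the 4 clusters in every list. It had 27 loops in wild-type ZNF143, 47 in wild-type CTCF, 30 in wild-type RAD21, 38 in ZNF143KO CTCF, 18 in ZNF143KO RAD21, 73 in CTCF-AID ZNF143 at 0 h and 25 at 24 h. HOXD came second in all lists but those of CTCF-AID cells, with 7, 22, 18, 16, 11, 24 and 7 loops in the same order. HOXA had 3, 9, 14, 10, 10, 27 and 6 loops, and HOXC, the narrowest window, had 4, 7, 8, 12, 5, 11 and 9. The background was the 4943 separate bins of 500 kb with an anchor in any list, so bins without a loop were not counted. The windows of HOXB, HOXC and HOXD are narrower than such a bin. Of these bins 0.486% held at least as many wild-type CTCF loops as HOXB, 0.809% as many wild-type RAD21 loops and 2.81% as many wild-type ZNF143 loops. For HOXA the shares were 21.4%, 8.27% and 22.9%, for HOXC 27.8%, 21.2% and 18.2%, and for HOXD 3.80%, 4.51% and 11.1%. In wild-type cells HOXB thus stood in the upper 3% of these bins with each antibody, while HOXA, HOXC and HOXD did so with none.

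**Figure D1:**
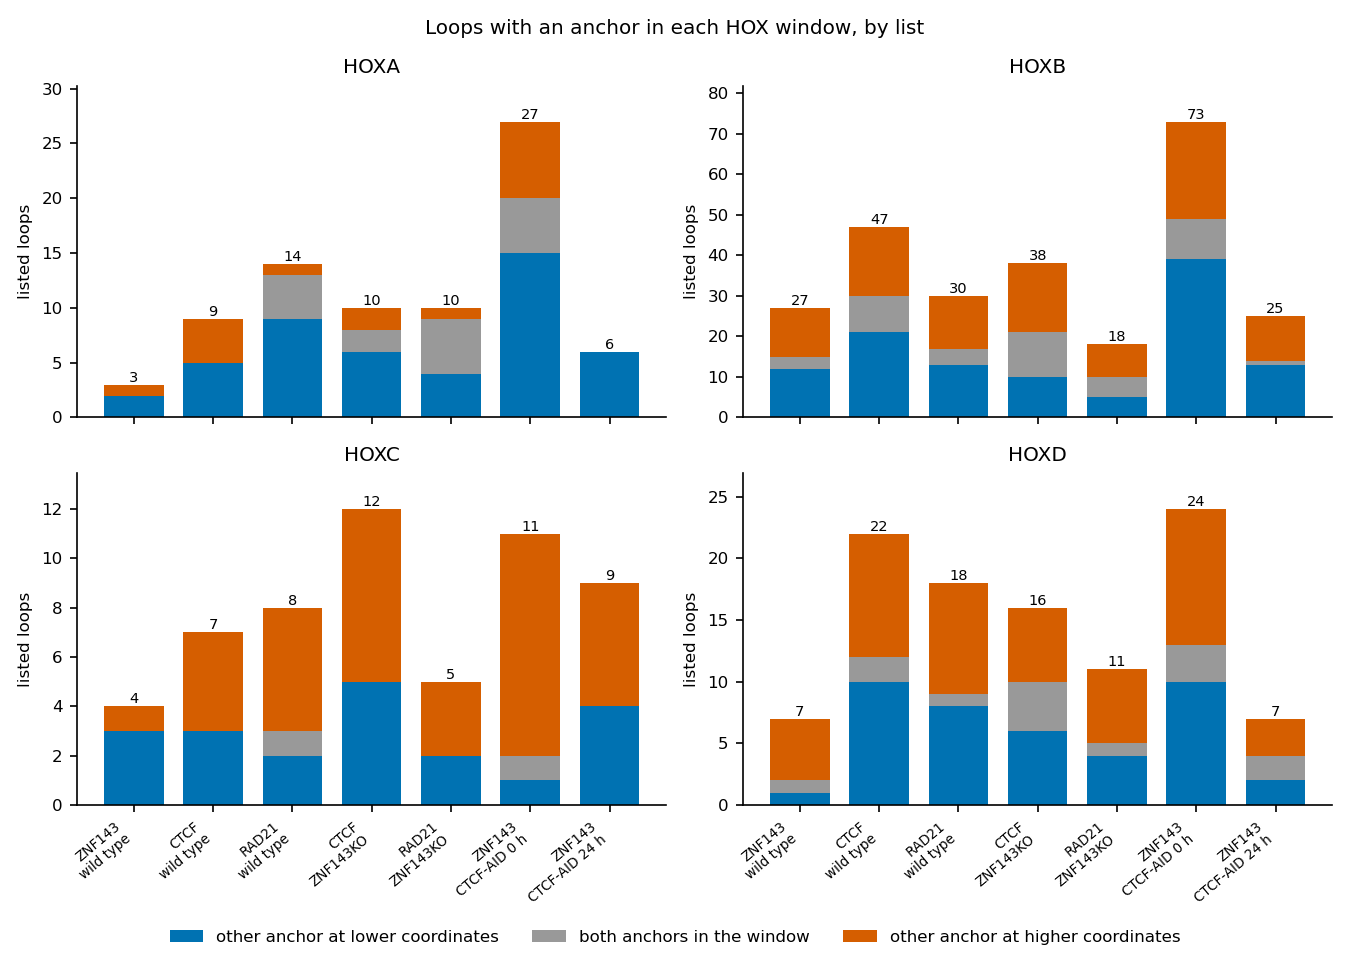
Number of listed loops (vertical axis, each panel with its own scale) with an anchor in each HOX window, by library (horizontal axis), split by whether the other anchor lies at lower coordinates, in the window or at higher coordinates. HOXB is highest in every library, from 18 loops in ZNF143KO RAD21 to 73 in CTCF-AID ZNF143 at 0 h.

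Most HOX loops left their window. In the wild-type CTCF list 11 of 85 HOX loops had both anchors inside, 39 reached to lower and 35 to higher coordinates. The same numbers were 10, 32 and 28 of 70 for wild-type RAD21 and 4, 18 and 19 of 41 for wild-type ZNF143. Pooled over the 4 clusters, HOX loops had longer median spans than their lists. Their median span was 305 kb against 144 kb over the whole wild-type ZNF143 list, 275 against 154 kb for CTCF and 243 against 160 kb for RAD21. In ZNF143KO the medians were 212 against 121 kb for CTCF and 239 against 142 kb for RAD21, and in CTCF-AID 423 against 236 kb at 0 h and 531 against 300 kb at 24 h. The pooled HOX median was the higher one in all 7 lists. The member rule itself favours long loops, because a loop with anchors far apart can enter a window from more positions than a short one. Its part in these medians was not tested. Clusters also differed. HOXB, with most loops, had a median of 72.1 kb in ZNF143KO RAD21, below that of the list, and 177 kb in wild-type RAD21 and 139 kb in ZNF143KO CTCF, near it, while HOXD had 616, 511 and 493 kb in wild-type RAD21, ZNF143KO RAD21 and ZNF143KO CTCF.

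Along each window the anchors with most loops differed in direction, with exceptions. Anchors within 5 kb of each other were merged over the 7 lists, giving 9 merged anchors in HOXA, 21 in HOXB, 7 in HOXC and 6 in HOXD. The sums that follow pool lists that can differ. In HOXD the anchor at chr2:176865816-176868248 had 3 loops to lower and 7 to higher coordinates. The larger one at chr2:176961598-176963290 had 26 loops to lower and 10 to higher coordinates, the small one after it, chr2:176975533-176977592, had 6 and 3, and chr2:176982967-177006365 had 12 to lower and 42 to higher. In HOXA the anchor at 26.901 Mb had 1 loop to lower and 5 to higher coordinates and that at 27.137 Mb 9 and 8. The anchor at chr7:27172110-27184259 had 30 loops to lower and 2 to higher coordinates, and those at chr7:27234575-27236790 and chr7:27249184-27250896 had 0 to lower and 5 and 3 to higher. Between them, chr7:27218923-27220507 had 14 loops to lower and 6 to higher coordinates, but its lists did not share a direction. The one wild-type list with this anchor, CTCF, had 1 to lower and 3 to higher, ZNF143KO CTCF had 6 and 2, and CTCF-AID had 4 and 1 at 0 h and 3 and 0 at 24 h.

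HOXB showed a change of direction over more anchors. The 4 anchors centred at 46.663, 46.671, 46.680 and 46.693 Mb had 15, 22, 19 and 25 loops to lower coordinates and 5, 10, 6 and 11 to higher. Those at 46.745, 46.882 and 46.892 Mb had 8, 14 and 9 to lower and 27, 29 and 19 to higher, while that at 46.868 Mb, between them, had 9 each way. Single lists also went the other way, with 4 to lower and 6 to higher at 46.671 Mb at 24 h and 2 and 0 at 46.892 Mb at 0 h. In HOXC both leading anchors pointed to higher coordinates, with 4 loops to lower and 17 to higher at 54.404 Mb and 6 and 14 at 54.429 Mb. The third HOXC anchor, at 54.381 Mb, had 6 and 5.

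A position was then set in each window after the directions had been seen, so the shares that follow are a description. In HOXA, HOXB and HOXD it lay between anchors of opposite direction. In HOXC, at 54.39 Mb, it lay between an anchor with 6 loops to lower and 5 to higher coordinates and one with 4 and 17. Of the loops that left the window, those pointing away from the set position were 55 of 63 (87.3%) in HOXA, 179 of 215 (83.3%) in HOXB, 40 of 54 (74.1%) in HOXC and 79 of 91 (86.8%) in HOXD. This rule favours loops pointing away, since a loop towards the position can end inside the window and is then left out. In HOXB the anchor at 46.882 Mb alone had 14 loops to lower coordinates, but only 13 such loops from above the position left the window. In HOXB the share was 91.7% in wild-type ZNF143, 84.2% in wild-type CTCF, 92.3% in wild-type RAD21, 96.3% in ZNF143KO CTCF, 100% in ZNF143KO RAD21, 77.8% in CTCF-AID at 0 h and 54.2% at 24 h. In HOXB the auxin-treated list was thus the least one-sided. In HOXD it was too, with 3 of 5 loops at 24 h against 66.7% in ZNF143KO CTCF, 80.0% in wild-type CTCF and 90.5% to 100% in the other 4 lists. HOXA and HOXC differed: the 24 h share was 100% in HOXA, from 6 loops, against 86.4% at 0 h, and 55.6% in HOXC, where wild-type ZNF143 had 50.0%.

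**Figure D2:**
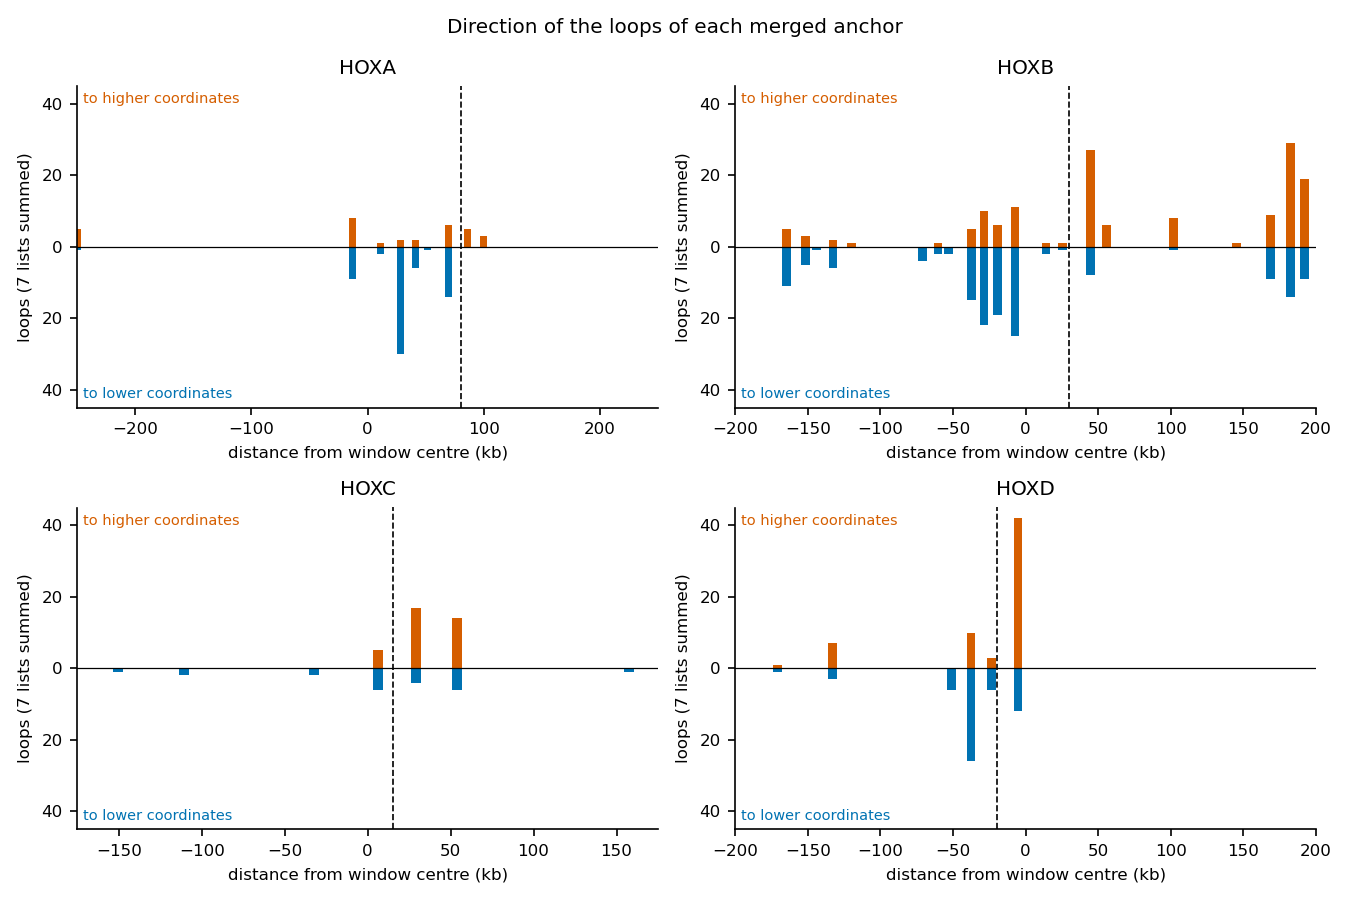
Loops of each merged anchor, summed over the 7 lists, that reach higher coordinates (upward bars) or lower coordinates (downward bars), against the anchor's distance from the window centre in kb; the dashed line is the position set in each window after the directions had been seen. In HOXD the bars turn from 26 loops downward and 10 upward through 6 and 3 at the next anchor to 12 downward and 42 upward at the one after it.

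The best supported member loops were CTCF and RAD21 loops at the higher-coordinate edge of the HOXB window. Whether their anchors lie in the gene cluster or beside it was not determined, since no anchor was assigned to a gene. Each named loop was followed by direct overlap of both anchors, without extension. The HOXB loop of highest count joined chr17:46881770-46882993 to chr17:46954592-46957161, 73.5 kb apart, and was listed with 76 counts in wild-type CTCF, 59 in wild-type RAD21, 16 in ZNF143KO CTCF, 11 in ZNF143KO RAD21, 5 in wild-type ZNF143 and 6 in CTCF-AID at 0 h, and was not listed at 24 h. Its neighbour from chr17:46891022-46892815 to the same second anchor, 64.0 kb apart, had 62, 35, 16 and 6 counts in the CTCF and RAD21 lists in the same order and was in none of the 3 ZNF143 lists, although a loop of 2 counts lay within 5 kb of it in wild-type ZNF143. Both were high with CTCF and RAD21 in wild-type cells and low or not listed with ZNF143.

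The leading HOXD loop joined chr2:176230583-176232395 to chr2:176961598-176963290 over 731 kb. It was listed with 27 counts in wild-type CTCF, 24 in wild-type RAD21, 7 in ZNF143KO CTCF, 6 in ZNF143KO RAD21 and 2 in CTCF-AID at 0 h, and was not listed in wild-type ZNF143 or at 24 h. On the other side, the loop from chr2:177004663-177006099 to chr2:177319226-177320639, 315 kb long, had 3 counts in wild-type ZNF143, 4 and 5 in wild-type CTCF and RAD21, 2 in each ZNF143KO list and 2 at 0 h, and was not listed at 24 h. This second loop was weak but present in 6 of 7 lists.

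HOXA and HOXC had no loop of that strength with CTCF or RAD21. The leading HOXA loops started from chr7:27134796-27139087 and ended at chr7:27175128-27177614 and chr7:27180760-27184259, 39.4 and 45.6 kb away. Each had 9 counts in wild-type RAD21, 4 and 5 in ZNF143KO RAD21 and 2 at 0 h, and neither was in a CTCF list, the wild-type ZNF143 list or the 24 h list. The leading HOXC loop joined chr12:54425883-54427256 to chr12:54581423-54583712, 156 kb apart, with 3 counts in wild-type ZNF143, 21 at 0 h and 11 at 24 h, and was not overlapped by a loop of the 4 CTCF and RAD21 lists. With anchors extended by 5 kb it matched a loop of 6 counts in wild-type CTCF, 5 in wild-type RAD21 and 3 in ZNF143KO CTCF. The leading HOXA loops had no match in a CTCF list under either rule, and the leading HOXC loop had its highest counts in the CTCF-AID ZNF143 lists. In wild-type cells, where all 3 antibodies were used, it had 3 counts with ZNF143 against 6 with CTCF and 5 with RAD21 within 5 kb.

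**Figure D3:**
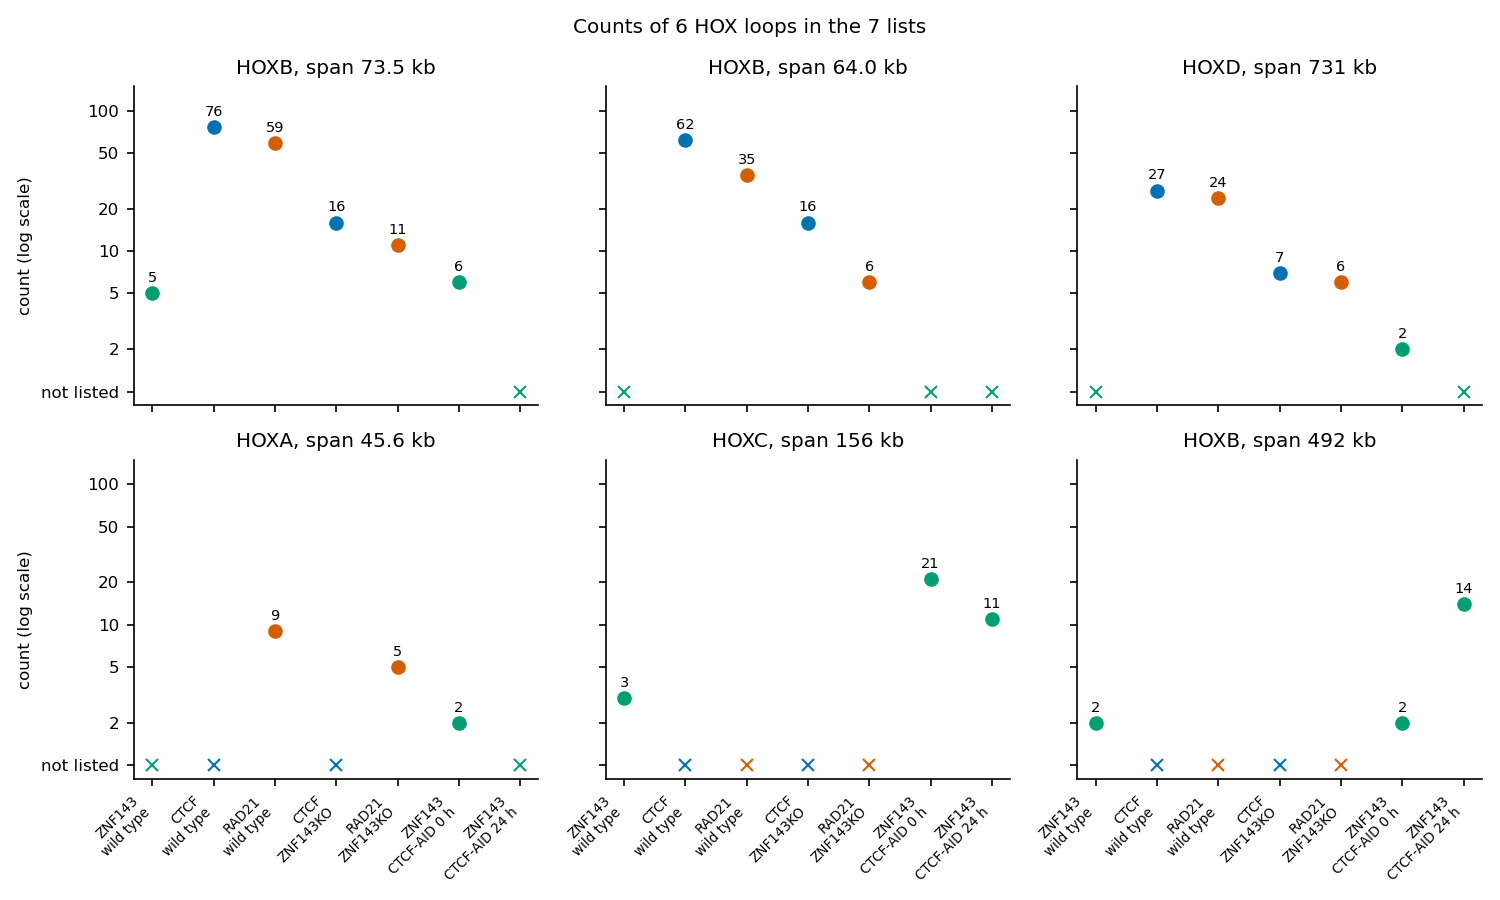
Counts (log scale) of 6 HOX loops in the 7 libraries, with a cross where the loop was not listed; colours mark the antibody (green ZNF143, blue CTCF, orange RAD21). The HOXB and HOXD loops of the upper row are highest in the wild-type CTCF and RAD21 lists, whereas the HOXC loop and the 492 kb HOXB loop are directly overlapped in ZNF143 lists only; within 5 kb the HOXC loop also matches loops of 6, 5 and 3 counts in wild-type CTCF, wild-type RAD21 and ZNF143KO CTCF.

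The 3 antibodies were compared in wild-type cells. A loop counted as found in a second list when that list had a loop whose anchors overlapped both of its own, extended by 5 kb. Of 41 HOX loops listed with ZNF143, 15 (36.6%) were found with CTCF, where 19.0% of all ZNF143 loops were, and 13 (31.7%) with RAD21, where 16.3% of all were. Of 85 HOX loops listed with CTCF, 18 (21.2%) were found with ZNF143 against 12.8% of all, and 35 (41.2%) with RAD21 against 46.4%. Of 70 HOX loops listed with RAD21, 19 (27.1%) were found with ZNF143 against 12.3% of all, and 40 (57.1%) with CTCF against 52.2%.

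With the 5 kb extension HOX loops were shared between ZNF143 and either of the other antibodies more often than loops elsewhere, and the shares between CTCF and RAD21 lay within counting error of the background. The difference from loops outside HOX was 17.7 points (4.66 to 33.0) for ZNF143 loops in CTCF and 14.9 points (5.90 to 26.3) for RAD21 loops in ZNF143, and -5.28 points (-15.2 to 5.36) for CTCF loops in RAD21. Without the extension the shares were 26.8% (15.7 to 41.9) against 14.1% for ZNF143 loops in CTCF, 17.1% (8.53 to 31.3) against 12.4% for ZNF143 loops in RAD21, 12.9% (7.38 to 21.7) against 8.78% for CTCF loops in ZNF143 and 10.0% (4.93 to 19.2) against 8.83% for RAD21 loops in ZNF143. Under direct overlap only the first stood above its background beyond counting error. HOX anchors lie close together, and their part in these shares was not tested.

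Single anchors differed by antibody. The HOXA anchor at 27.137 Mb had 6 loops in wild-type RAD21 and 4 in ZNF143KO RAD21 and 0 in both CTCF lists. The HOXA anchor at 27.220 Mb had 4 loops in wild-type CTCF and 8 in ZNF143KO CTCF and 0 in both RAD21 lists. Over the 4 windows, 3 of 30 wild-type RAD21 anchors were in neither CTCF list, where 20.2% of all RAD21 anchors were, and 7 of 32 wild-type CTCF anchors were in neither RAD21 list, where 24.2% of all were. Among anchors with at least 3 loops the numbers were 1 of 12 (8.33%, 1.49 to 35.4) against 5.09% for RAD21 and 2 of 15 (13.3%, 3.74 to 37.9) against 4.73% for CTCF. At these numbers a difference from the background was not detectable.

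The comparison of ZNF143KO with wild-type cells asks how CTCF and cohesin loops change when ZNF143 is deleted. At HOX the numbers of loops moved with the whole list. CTCF loops numbered 85 in wild-type and 76 in ZNF143KO cells, a ratio of 0.894 (0.647 to 1.23) against 0.808 over the list, and RAD21 loops 70 and 44, a ratio of 0.629 (0.421 to 0.929) against 0.644. Total counts at HOX went from 410 to 223 for CTCF and from 372 to 140 for RAD21, ratios of 0.544 and 0.376 against 0.573 and 0.450. By cluster, the CTCF loops numbered 9 and 10 in HOXA, 47 and 38 in HOXB, 7 and 12 in HOXC and 22 and 16 in HOXD, and every interval of these ratios included 1.

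Loops inside a window were not fewer in ZNF143KO. Those with CTCF numbered 11 in wild-type and 17 in ZNF143KO cells, and those with RAD21 10 and 11, while CTCF loops to lower coordinates numbered 39 and 27 and RAD21 loops to lower coordinates 32 and 15. Loops to higher coordinates numbered 35 and 32 with CTCF, a ratio of 0.914, and 28 and 18 with RAD21, a ratio of 0.643, and both intervals included 1. The ratio of inside loops was 1.55 (0.683 to 3.65) for CTCF and 1.10 (0.424 to 2.89) for RAD21, and both intervals included the ratio of the whole list and that of the loops to higher coordinates.

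Of the wild-type HOX loops, 48 of 85 (56.5%) with CTCF were not found in ZNF143KO, where 60.9% of all loops were not found, and 40 of 70 (57.1%) with RAD21, where 65.9% of all were not. Of the HOX loops listed in ZNF143KO, 42 of 76 (55.3%) with CTCF were not found in wild-type cells, against 52.9% of all, and 16 of 44 (36.4%) with RAD21, against 49.1%. Pooled over the clusters, HOX loops lay within counting error of the background in all 4 directions. Single clusters ranged from 1 of 7 CTCF loops of HOXC not found to 16 of 22 of HOXD, and from 5 of 14 RAD21 loops of HOXA to 7 of 8 of HOXC. Of the 16 differences by cluster 3 had intervals that excluded 0: -46.7 points (-58.4 to -9.62) for the CTCF loops of HOXC, -30.2 points (-49.6 to -4.65) for the RAD21 loops of HOXA and -39.2 points (-47.5 to -8.76) for its RAD21 loops listed in ZNF143KO, where 1 of 10 was not found in wild-type cells.

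The strong loops had lower counts in ZNF143KO. The HOXB 73.5 kb loop had 76 and 16 CTCF counts, a ratio of 0.211 (0.115 to 0.364), and 59 and 11 RAD21 counts, a ratio of 0.186 (0.0883 to 0.358). The HOXD 731 kb loop had ratios of 0.259 (0.0953 to 0.610) with CTCF and 0.250 (0.0836 to 0.628) with RAD21. Of all loops with a wild-type count of at least 20, chosen as background after seeing the data, 7 of 331 with CTCF and 19 of 379 with RAD21 were not listed in ZNF143KO. With these ranked lowest, the median ratio was 0.286 for CTCF and 0.256 for RAD21. These HOXB and HOXD loops had ratios below that median but within counting error of it. With CTCF 31.1% of such loops were lower than the HOXB 73.5 kb loop and 42.6% lower than the HOXD loop, and with RAD21 30.6% and 46.7%. The HOXB 64.0 kb loop had ratios of 0.258 (0.139 to 0.453) with CTCF and 0.171 (0.0589 to 0.412) with RAD21, with 42.3% and 25.1% of such loops lower. Both intervals included the median. The HOXB loop from chr17:46746494-46749795 to chr17:46954592-46957161, 208 kb long and named as the RAD21 loop of highest count that was not found, had 14 CTCF counts in wild-type and 2 in ZNF143KO cells, a ratio of 0.143 (0.0158 to 0.622), or 4 in ZNF143KO within 5 kb. With RAD21 it had 18 counts in wild-type cells and was not listed in ZNF143KO.

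Many loops that were not found still had their anchors in use. Among the HOX loops not found in ZNF143KO, 26 of 48 (54.2%) with CTCF and 27 of 40 (67.5%) with RAD21 had both anchors in use by other loops of the ZNF143KO list, against 42.4% and 33.2% of all loops not found. For CTCF the HOX interval, 40.3% to 67.4%, included that share, and for RAD21, 52.0% to 79.9%, it lay above it. The reverse was seen for HOX loops listed in ZNF143KO and not found in wild-type cells. With CTCF 29 of 42 (69.0%, 54.0 to 80.9) had both anchors in use in wild-type cells against 38.5% of all, beyond counting error. With RAD21 9 of 16 (56.2%, 33.2 to 76.9) did against 33.8%, within it. Of the wild-type CTCF anchors in the windows 8 of 32 (25.0%, 13.3 to 42.1) were absent from the ZNF143KO list, against 35.3% of all, and of the RAD21 anchors 7 of 30 (23.3%, 11.8 to 40.9), against 42.1%. Among CTCF anchors with more loops the order was the other way, with 2 of 15 absent (13.3%, 3.74 to 37.9) against 10.1% at 3 or more loops and 1 of 7 (14.3%, 2.57 to 51.3) against 3.20% at 5 or more. For RAD21 the numbers at 3 or more loops were 0 of 12 (0% to 24.2%) against 15.8%. Among these shares of absent anchors only that of RAD21 over all anchors lay outside counting error of its background. The one anchor with at least 5 wild-type CTCF loops and none in ZNF143KO was the HOXB anchor at 46.671 Mb, chr17:46670422-46672103, which had 5 CTCF loops in wild-type and 0 in ZNF143KO cells but 2 and 4 with RAD21.

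**Figure D4:**
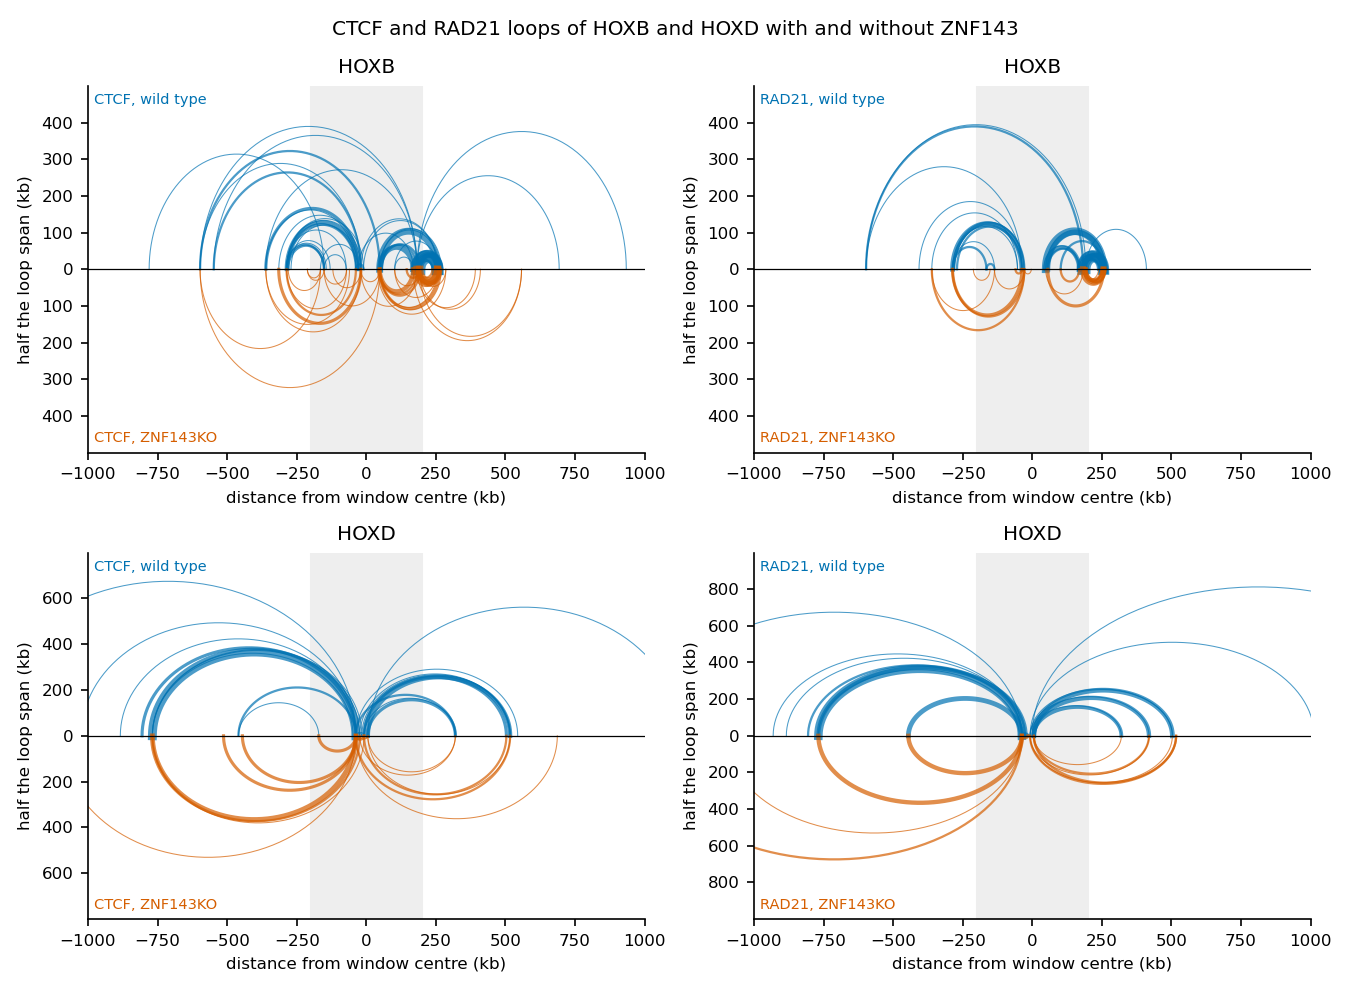
Loops of HOXB (upper row) and HOXD (lower row) with CTCF (left) and RAD21 (right), drawn as arcs against the distance from the window centre in kb, wild type upward and ZNF143KO downward; the height grows with the span, thicker lines have higher counts and the grey band is the window, with arcs of the longest loops running off the panel. HOXB has 47 and 38 CTCF loops, HOXD 22 and 16, and the thickest wild-type arcs of the CTCF panels, the HOXB loops of 76 and 62 counts and the HOXD loop of 27, are also drawn for ZNF143KO, where they have 16, 16 and 7.

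The comparison of auxin at 24 h with 0 h asks what happens to ZNF143 loops when CTCF is depleted. HOX loops numbered 135 at 0 h and 47 at 24 h, a ratio of 0.348 (0.244 to 0.489) against 0.510 over the list, a lower ratio at HOX than over the list. At a count of at least 3 the ratio was 0.410 (0.214 to 0.751) against 0.675, and with the CTCF-AID counts divided by 2 it was 0.452 (0.222 to 0.874) against 0.720, so under both rules the background lay within the HOX interval. By cluster they went from 27 to 6 in HOXA (ratio 0.222, 0.0750 to 0.549), from 73 to 25 in HOXB (0.342, 0.208 to 0.546), from 11 to 9 in HOXC (0.818, 0.300 to 2.17) and from 24 to 7 in HOXD (0.292, 0.106 to 0.698). Loops inside a window went from 19 to 3. HOXC had the ratio closest to 1, and whether it differs from the other clusters was not tested.

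At 24 h 116 of the 135 HOX loops (85.9%) were not found, where 75.3% of all 0 h loops were not, a difference of 10.6 points (3.75 to 15.5). Among loops of 2 counts at 0 h, which were 96 of the 135, the shares not found were 89.6% (81.9 to 94.2) at HOX and 84.4% of all, within counting error. Among loops of at least 3 counts they were 76.9% (61.7 to 87.4) and 55.2%. Of those of at least 5 counts 6 of 11 (54.5%, 28.0 to 78.7) were found against 58.7%, too few loops to show a difference of 10.6 points or its absence. With anchors extended by 10 kb, 23.7% (17.3 to 31.5) of HOX loops were found against 29.7% of all, and with CTCF-AID counts divided by 2, 22.6% (11.4 to 39.8) against 36.6%, so under both rules the background lay within the interval. Of the 47 HOX loops listed at 24 h, 28 (59.6%) had not been found at 0 h, against 54.6% of all. HOXA had 26 of 27 loops not found, HOXB 63 of 73, HOXD 21 of 24 and HOXC 6 of 11. Of the HOX loops not found, 16 of 116 (13.8%) had both anchors in use at 24 h, against 24.5% of all, and 21 of 34 HOX anchors were absent at 24 h, against 57.5% of all anchors.

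In HOXB the loops above and below the set position differed. The anchors from 46.745 to 46.892 Mb had 0 loops at 24 h, although those at 46.745 and 46.882 Mb had had 10 and 11 at 0 h. The 20 loops that left the window from above the set position at 0 h numbered 0 at 24 h, while those from below it numbered 43 and 24. The anchor at 46.671 Mb had 10 loops at 0 h and 10 at 24 h, and that at 46.693 Mb 16 and 12, but those at 46.663 and 46.680 Mb, on the same side, had 6 and 11 at 0 h and 0 at 24 h. Above the position no anchor kept a listed loop, and below it some did. Loops from below the position to higher coordinates, which cross it, numbered 9 at 0 h and 11 at 24 h.

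Named loops of this comparison were chosen for their counts at 0 h or 24 h, so part of each difference is fixed by the choice. The HOXB loop of highest count at 24 h, from chr17:46177990-46179598 to chr17:46670422-46672103, 492 kb long, had 2 counts in wild-type ZNF143, 2 at 0 h and 14 at 24 h and was in no CTCF or RAD21 list. The ratio of 24 h to 0 h was 7 (1.61 to 63.5), and with counts divided by 2 its interval, 0.899 to 315, included 1. The HOXB loop of highest count that was not found at 24 h, from chr17:46412755-46414208 to the same anchor, had 5 counts in wild-type CTCF, 2 in wild-type RAD21, 3 in ZNF143KO RAD21 and 8 at 0 h. Both loops end at the same HOXB anchor, and one had its highest count at 24 h while the other was not listed there. In HOXC, the 156 kb loop had 21 and 11 counts, a ratio of 0.524 (0.228 to 1.14). Of all 556 ZNF143 loops with at least 20 counts at 0 h, 126 were not listed at 24 h. With these ranked lowest the median ratio was 1.00 and 28.4% were lower than this loop, or 22.8% with anchors extended by 5 kb. The loop from chr12:54398066-54400614 to chr12:54581423-54583712 had 10 and 10.

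**Figure D5:**
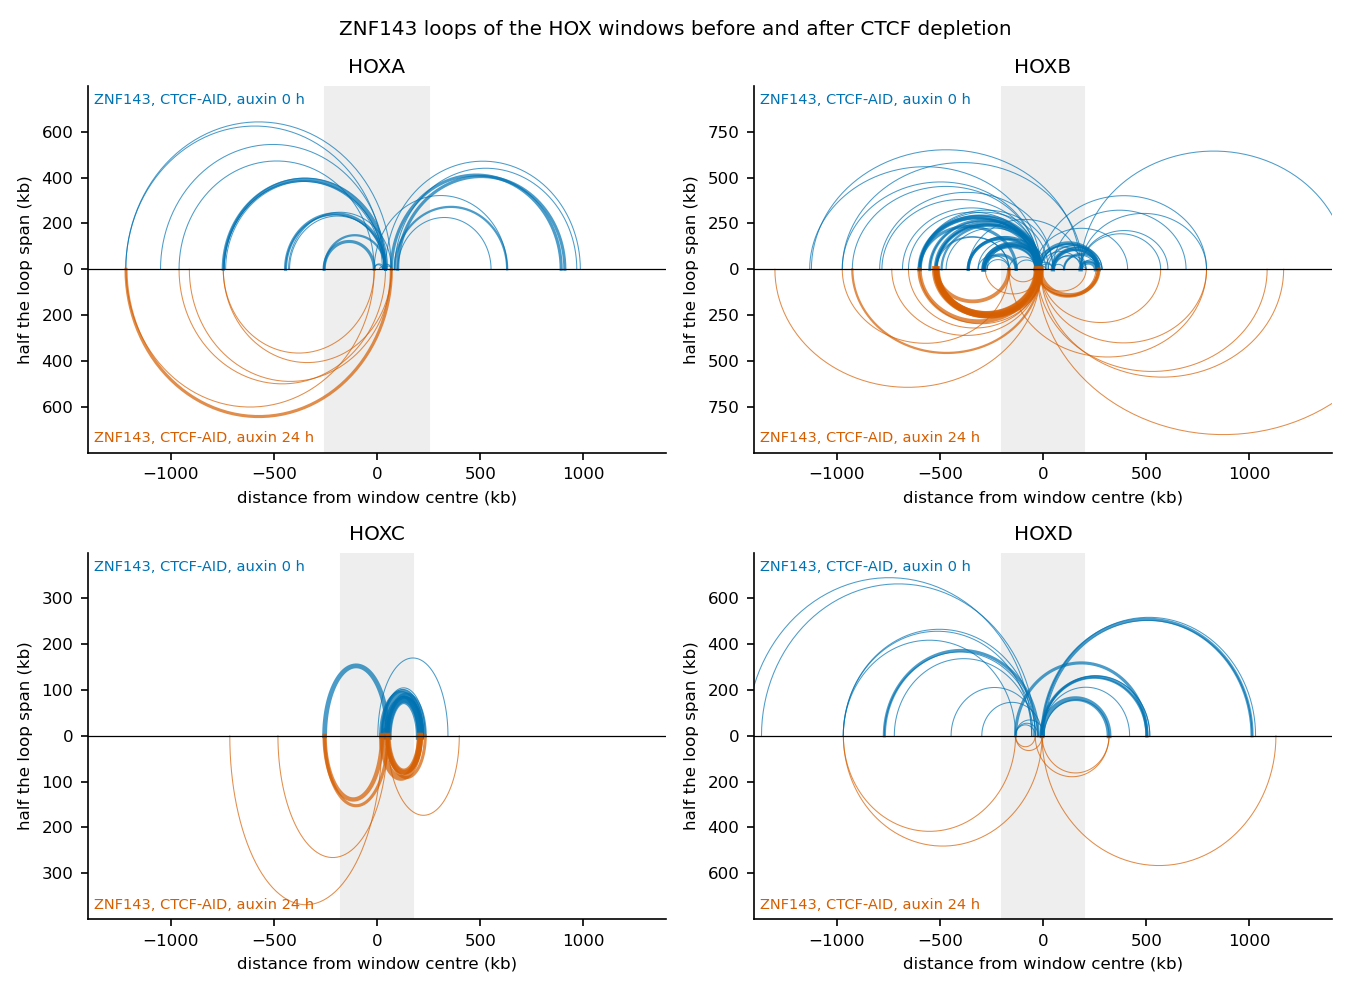
ZNF143 loops of the 4 HOX windows in CTCF-AID cells, drawn as arcs against the distance from the window centre in kb, auxin 0 h upward and 24 h downward; the height grows with the span, thicker lines have higher counts and the grey band is the window, with arcs of the longest loops running off the panel. HOXA goes from 27 loops to 6, none of the latter to higher coordinates, and HOXC from 11 to 9.

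The last comparison sets the untreated CTCF-AID cells against wild-type cells, both with the ZNF143 antibody. HOX loops numbered 41 in wild-type and 135 in CTCF-AID cells at 0 h, a ratio of 3.29 (2.31 to 4.79) against 3.37 over the list. The counts of the CTCF-AID lists were even for 89.5% of loops at 0 h and 86.8% at 24 h, against 68.1% to 74.6% in the other lists, so their scale may differ; with those counts divided by 2 and loops of at least 2 kept, the HOX ratio was 0.756 against 0.879. The 0 h list also serves the comparison with 24 h, so the comparisons are not independent. Of the wild-type loops, 27 of 41 at HOX (65.9%) were not found at 0 h, where 40.4% of all were not, a difference of 25.5 points (10.2 to 38.2), and 119 of the 135 (88.1%) were not found in wild-type cells, against 80.6% of all. Among wild-type loops of 2 counts the shares not found at 0 h were 75.9% (57.9 to 87.8) at HOX and 55.1% of all, and among those of at least 3 counts 5 of 12 (41.7%, 19.3 to 68.0) and 24.7%, within counting error. With both lists held to a count of at least 3, 41.7% (19.3 to 68.0) of HOX loops were found against 62.3% of all, and with CTCF-AID counts divided by 2, 22.0%, with an upper limit of 36.7%, against 40.1%. With anchors extended by 10 kb, 56.1% (41.0 to 70.1) of the wild-type HOX loops were found at 0 h against 65.3% of all, so the first difference was within counting error with this extension and at a count of at least 3, and beyond it with halved counts. Of the 27 loops, 19 (70.4%, 51.5 to 84.1) had both anchors in use at 0 h, against 57.4% of all such loops. An example is the HOXA loop from chr7:26892866-26894690 to chr7:27175128-27177614, with 5 counts in wild-type ZNF143 and 2 in wild-type RAD21 and no direct overlap elsewhere; within 5 kb it matched loops of 2 or 3 counts in the 4 CTCF and RAD21 lists, but none at 0 h or 24 h. Wild-type HOX loops with ZNF143 had a mean count of 2.54 against 4.12 over the list, and the part of these low counts in the shares was not tested.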

How the data were processed

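HiChIP loops were taken from 7 lists, 1 per library, that the authors deposited. Each line gives a pair of anchors and a whole-number count, and the authors' counts were used as deposited, without scaling. HiC-Pro and hg19 are named in the submitters' processing notes; the loop caller, the filters and any pooling of runs are not given in the sources used here. Anchors share end points with their neighbours, so starts were taken as counted from 0 and are printed counted from 1. The members and lists were chosen with earlier results of these data known. Groups came from the sample titles.

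Loops of different lists were matched when both anchors of the first, extended by 5 kb, overlapped those of the second by at least 1 bp; named loops were followed without extension. Named were, in each cluster, the loop of highest count in each list and, for each of the 4 pairs, the loops not found and newly listed with the highest count, the text giving those that show the comparison. Further loops and anchors were named after their values were seen. Shares carry Wilson intervals, ratios exact binomial intervals and differences Newcombe intervals, computed with Python 3.11.15 and scipy 1.17.1. The member rule and the matching of loops were tested on simulated loops, and the intervals were not. Promoter letters and gene order came from RefSeq (GRCh38.p14); no genome or annotation of hg19 was used. Alternatives were a minimum count of 3, other member rules, extensions of 0 and 10 kb and CTCF-AID counts divided by 2.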

Additional observations from a re-analysis of the deposited data

How the results depend on the processing

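Of 103 alternatives over 28 results, 69 left the value within its interval or within 1.5 times, 32 moved it and 2 turned the direction of a ratio whose interval excluded 1; counting a ratio whose interval included 1, 3 ratios crossed 1. With a count of at least 3, HOX loops numbered 12, 37, 39, 27, 24, 39 and 16 in the lists in the order wild-type ZNF143, CTCF and RAD21, ZNF143KO CTCF and RAD21 and CTCF-AID at 0 h and 24 h; the 24 h median span was 328 kb, and wild-type shares were 17.9% for RAD21 loops found with ZNF143 and 50.0% for ZNF143 loops found with RAD21. With both midpoints in a window the numbers were 4, 11, 10, 17, 11, 19 and 3 in the same order. The ratios were then 1.55 for CTCF and 1.10 for RAD21 after ZNF143 deletion, both across 1 from 0.894 and 0.629, and 0.158 for ZNF143 after CTCF depletion. Shares were then 0% for wild-type ZNF143 loops found at 0 h, 18.2% for CTCF in RAD21, 9.09% for CTCF in ZNF143 and 30.0% for RAD21 in CTCF. With no extension, shares were 12.9% for CTCF in ZNF143 (8.78% of all), 44.3% for RAD21 in CTCF (47.8%), 10.0% for RAD21 in ZNF143 (8.83%) and 17.1% for ZNF143 in RAD21 (12.4%). With 10 kb, 23.7% of HOX 0 h loops were found at 24 h, against 29.7% of all, and 56.1% of wild-type ZNF143 loops at 0 h, against 65.3%. With CTCF-AID counts divided by 2, 31 and 14 HOX loops were left at 0 h and 24 h, 22.6% (11.4 to 39.8) of the former were found at 24 h against 36.6% of all, the ratio of 24 h to 0 h was 0.452 (0.222 to 0.874) against 0.720, and the ratio of 0 h to wild type was 0.756, reversed from 3.29, against 0.879 over the list. The cause of these shifts was not tested, except that the stricter rules keep fewer loops by construction. Ranking strong loops only among those still listed gave medians of 0.291 for CTCF and 0.270 for RAD21 after ZNF143 deletion and 1.19 for ZNF143 after CTCF depletion, where 7.44% instead of 28.4% were lower than the HOXC loop. Merging only touching anchors, chosen after seeing the data, gave 12, 24, 11 and 11 anchors in HOXA, HOXB, HOXC and HOXD. CTCF letters at anchors were not searched, for want of a genome of the build used here. Depth limits all of this: most HOX loops had a count of 2, 1 library stood behind each group, and a loop not listed was not shown to be absent.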
